A study of Mus musculus with 3 samples.

Results

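Apolipoproteins and lipid handling proteins were followed through 7 genes, Apoc3, Apoh, Apoe, Mttp, Fabp1, Lpl and Baat, in RNA of mouse liver and spleen. The rule took every spot whose single gene symbol in the platform annotation was 1 of these names. It found 9 spots of the 12336 that name a single gene, for 7 genes of 7984. The genes were selected on their liver-to-spleen log2 ratios on these arrays, so those ratios are given as a description and were not tested. Each of 3 two-colour cDNA arrays carried liver RNA labelled with Cy5 and spleen RNA labelled with Cy3, both after a double round of amplification to cRNA. Both tissues were catalogue total RNAs bought from a supplier, and the labels give no strain, sex, age or number of animals. The labels number the arrays 1 to 3 and do not say whether amplifications or RNA lots were separate, so the spread between arrays may be technical. Liver was always in Cy5, so what belongs to the dye and what to the tissue cannot be told apart.

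The deposited value is 1 log2 ratio per spot and array, with no channel intensities used here, so the signal behind a ratio is unknown. The labels do not state the numerator. Positive ratios are called liver over spleen because Fgb and Ttr lay far above 0 and Ms4a1, Ighm and Coro1a far below 0 on the arrays where they had a ratio, which makes this direction likely. A spot listed at exactly 0 was taken as having no ratio. Between 11120 and 15210 of the 16273 spots had one on an array. Genes with a ratio on every array were tested against 0 with limma, and 54.9% of 5731 were called at an adjusted p under 0.05. Besides Fgb, the tested hepatocyte markers F11, Vtn, Hal, Ambp and Rbp4 were all called higher in liver, with means from 3.88 to 5.65. Of 10 lymphoid markers, among them Ms4a1 and Ighm that set the direction, 9 were called higher in spleen. Pou2af1 was at -3.41 ± 0.14 (SD, n = 3 arrays), Jchain at -3.45 ± 0.51 and Cd4 at -0.80 ± 0.16. Cd3d alone was higher in liver at 1.24 ± 0.16, from 1 spot, while Cd3g was at -3.13 ± 0.62 and Cd8a at -2.90 ± 0.29. In whole tissue RNA, fewer cells of a type and less RNA per cell cannot be told apart.

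Hepatocytes package triglyceride and cholesterol with apolipoprotein B into very-low-density lipoprotein and secrete it into the blood. Exchangeable apolipoproteins such as those encoded by Apoc3 and Apoe then ride on the particles and set how they are hydrolysed and taken up, while lipoprotein lipase on the capillary wall releases their fatty acids to peripheral tissue. Hepatocytes also turn cholesterol into bile acids and conjugate them before secretion. Enterocytes of the small intestine share the loading protein Mttp and the binding protein Fabp1 with hepatocytes, and macrophages of many tissues make apolipoprotein E and lipoprotein lipase.

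The DNA just before the transcription start is shown for Apoh, which was on the liver side, and for Fabp1 and Mttp, which were on the spleen side. Of the 7 genes, Apoh, Apoe, Fabp1 and Mttp matched the RefSeq promoter table of GRCm38.p6, and Apoc3, Lpl and Baat did not. Each line holds the 250 bases before the annotated start, 5′ to 3′ on the gene's strand. Capitals mark matches to TATAAA, the box that can position the start of transcription, and to GTTAAT, an arm of the palindromic site bound by the hepatocyte factor HNF1. Both strands were searched for each.
Apoh, chr11:108395047-108395296, plus strand: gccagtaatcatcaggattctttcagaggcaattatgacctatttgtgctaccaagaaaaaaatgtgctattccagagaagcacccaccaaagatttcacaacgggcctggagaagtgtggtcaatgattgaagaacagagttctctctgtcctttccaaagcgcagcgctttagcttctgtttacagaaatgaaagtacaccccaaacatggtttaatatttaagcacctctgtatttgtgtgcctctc
Fabp1, chr6:71199629-71199878, plus strand: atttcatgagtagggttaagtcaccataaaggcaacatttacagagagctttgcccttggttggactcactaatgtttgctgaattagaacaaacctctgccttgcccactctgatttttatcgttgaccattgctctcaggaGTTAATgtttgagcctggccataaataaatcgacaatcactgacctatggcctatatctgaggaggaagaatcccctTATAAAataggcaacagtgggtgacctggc
Mttp, chr3:138143419-138143668, minus strand: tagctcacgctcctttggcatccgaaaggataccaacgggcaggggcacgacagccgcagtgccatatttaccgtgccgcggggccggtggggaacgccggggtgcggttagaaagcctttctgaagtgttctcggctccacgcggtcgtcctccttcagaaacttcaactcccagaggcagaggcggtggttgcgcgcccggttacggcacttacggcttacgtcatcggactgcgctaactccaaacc
The Fabp1 window held TATAAA from 30 to 25 bases before the start and GTTAAT from 107 to 102 bases before it. The Apoh and Mttp windows held neither motif. Apoe has 3 annotated starts, of which 1 window held ATTAAC, the reverse complement of GTTAAT, and another held the overlapping matches TTTATA and TATAAA. Among all 32851 windows of this length, 12.4% held TATAAA and 6.43% held GTTAAT on either strand. Another motif, CAAAGTCCA (a site for the factor HNF4), was in 0.384% of all windows and in none of the 6 windows of these genes. The Mttp window was the richest in G and C at 61.2%, against 42.0% for Apoh, 42.8% for Fabp1 and a median of 52.4% over all windows. These letters describe the windows and do not show binding, and any link to the side of a gene was not tested.

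Among the secreted proteins of lipoprotein particles, Apoc3 and Apoh stood well above Apoe. Apoc3 encodes apolipoprotein C-III, which slows hydrolysis of triglyceride-rich particles by lipoprotein lipase and their uptake by the liver. Its single spot (clone AK008260) had log2 ratios of 5.64, 5.03 and 4.95 on arrays 1, 2 and 3. Array 1 was the highest, and the other two lay close together. The mean was 5.21 ± 0.38, or 37.0-fold higher in liver, and 9 of 5731 tested genes had a higher mean.

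Apoh encodes beta-2-glycoprotein I, a plasma protein that binds negatively charged phospholipids and travels in part with lipoproteins. Its spot (clone AK010926) had ratios of 5.17, 5.31 and 4.98. The mean of 5.16 ± 0.17, or 35.6-fold higher in liver, stood next below Apoc3 in the order of all genes. The ratios of Apoc3 and Apoh could not be ordered, as their difference of 0.052 ± 0.38 was smaller than its SD and Apoc3 was the higher on 1 of 3 arrays.

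Apoe encodes apolipoprotein E, the ligand through which remnant particles bind receptors of the LDL receptor family. It was read by 2 clones. Clone AK010261 gave 3.58, 3.48 and 3.53, and clone AK019319 gave 3.63, 3.14 and 3.57. The clones differed by 0.044 on array 1 and 0.032 on array 3, and the second clone less the first was -0.34 on array 2, so each array put Apoe on the liver side with either clone. Averaged over the clones, the mean was 3.49 ± 0.16, or 11.2-fold higher in liver. Apoe was below Apoc3 on 3 of 3 arrays, by 1.72 ± 0.32, and below Apoh by 1.67 ± 0.30. A difference between log2 ratios of different genes compares how unevenly each is split between the tissues, not their levels.

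Baat had the highest ratio of the 7 genes. It encodes bile acid-CoA:amino acid N-acyltransferase, which joins bile acids to taurine or glycine before they enter bile. Its spot (clone AK017923) had ratios of 5.70, 5.94 and 5.40, with a mean of 5.68 ± 0.27, or 51.2-fold higher in liver. Only 2 tested genes had a higher mean. Baat exceeded Apoh on 3 of 3 arrays by 0.52 ± 0.10. It also exceeded Apoc3 on 3 of 3 arrays, by 0.47 ± 0.42, a difference close to its own SD. Each of these genes was read by 1 spot, so the SD over arrays leaves out differences between clones. Among genes with 2 spots the median gap between them was 0.36, so the order of Baat, Apoc3 and Apoh is not settled.

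**Figure D1:**
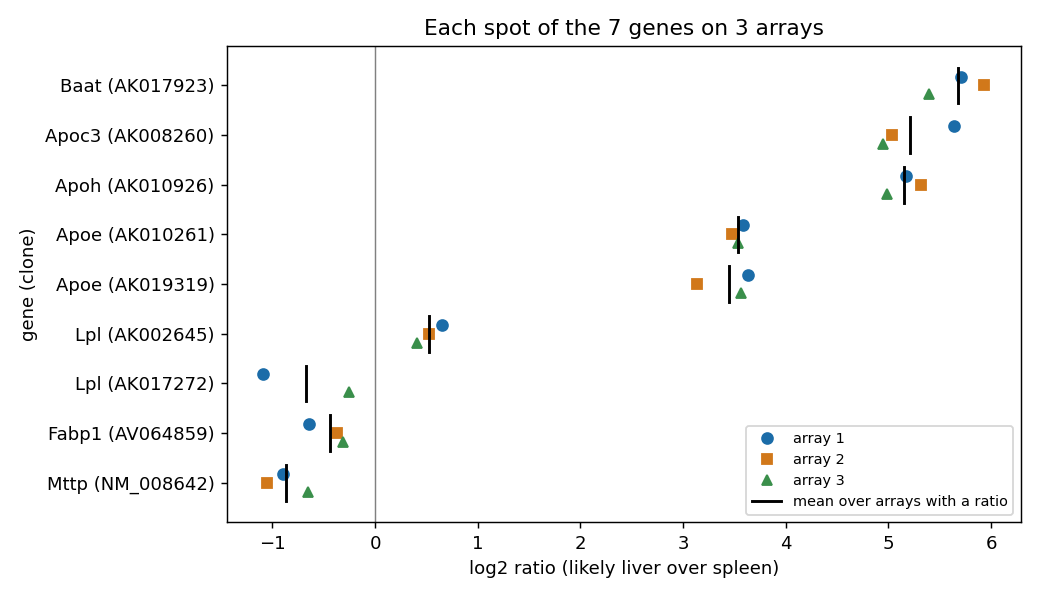
Log2 ratio of each of the 9 spots (rows, with the annotated accession in brackets) on arrays 1, 2 and 3 (circle, square, triangle). Vertical ticks are means over the arrays with a ratio. Baat, Apoc3, Apoh and Apoe lie between 3.14 and 5.94, Mttp and Fabp1 lie between -1.05 and -0.32, and the Lpl clones lie on opposite sides of 0.

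Mttp and Fabp1 were on the other side, with small ratios of the same sign on every array. Mttp encodes the large subunit of the microsomal triglyceride transfer protein, which loads lipid onto apolipoprotein B in the endoplasmic reticulum. Its single spot (annotated NM_008642, a RefSeq transcript) had ratios of -0.90, -1.05 and -0.66. The mean was -0.87 ± 0.20, or 1.83-fold higher in spleen, and 837 of 5731 genes had a lower mean. Apoe, the lowest of the 4 genes with high liver ratios, was above Mttp on 3 of 3 arrays, by 4.36 ± 0.15.

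Fabp1 encodes the liver fatty acid-binding protein, which carries fatty acids, acyl-CoA and bile acids in the cytosol of hepatocytes and enterocytes. Its single spot (clone AV064859) had ratios of -0.64, -0.37 and -0.32, with array 1 the lowest. The mean was -0.44 ± 0.18, or 1.36-fold higher in spleen, and 1637 genes had a lower mean. Mttp was below Fabp1 on 3 of 3 arrays, by 0.43 ± 0.23, an SD over arrays that leaves out differences between clones. Array medians over spots with a ratio were -0.019, 0.028 and 0.053, smaller than either gene's ratio on any array. These medians cannot show a shift of single spots, and the part of dye or signal in both ratios was not tested. Of the other members of the Fabp1 family, Fabp5 had a tested value, 0.21 ± 0.15 over 3 spots, and did not pass (limma adjusted p = 0.195).

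Mttp and Fabp1 were each read by 1 spot, annotated with a kind of accession that is rare on this array. Of spots that name a single gene, 10583 carry an AK accession, 465 an NM accession and 188 an AV accession. The AK clones read the other 5 genes, and no AK clone named Mttp or Fabp1. Among 33 genes with complete AK and AV spots, the sides agreed for 25 (75.8%), with a median gap of 0.27 between them. Among 130 genes with complete AK and NM spots they agreed for 101 (77.7%), with a median gap of 0.28. Few of these genes had an AK mean of at least 2. Of 2 such genes with an AV spot, 0 had that spot below 0, and of 5 with an NM spot, 1 did. Among genes with 2 spots of any kind, each with a ratio on at least 2 arrays, the sides were opposite for 27.4%. The median gap there was 0.36. The part of clone identity in the Mttp and Fabp1 ratios was not tested.

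Lpl was the gene whose clones disagreed. It encodes lipoprotein lipase, which hydrolyses triglyceride in chylomicrons and very-low-density lipoprotein and is made mainly by fat, muscle and macrophages. Clone AK002645 gave 0.65, 0.52 and 0.41 on arrays 1, 2 and 3, all above 0. Clone AK017272 gave -1.09 on array 1 and -0.25 on array 3, both below 0, and had no ratio on array 2. The gap between the clones was 1.74 on array 1 and 0.66 on array 3. The gene mean of 0.13 ± 0.37 therefore mixes opposite clones on arrays 1 and 3 (-0.22 and 0.078) with a single clone on array 2 (0.52). Without array 2 the mean was -0.070, and with the clone that had a ratio on every array it was 0.53, so Lpl has no settled side.

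Opposite clones were not rare on these arrays. Of 1226 genes with 2 spots that each had a ratio on at least 2 arrays, 27.4% had means on opposite sides of 0, and the median gap was 0.36. The gap of 0.089 between the Apoe clones was wider than that of 14.9% of these genes. The Lpl gap of 1.20 was wider than that of 87.2% of them.

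Counted together, 6 of the 7 genes had the same sign on all 3 arrays, where 75.9% of all tested genes did, and 4 had a mean log2 ratio of at least 3, where 1.95% did. Since these ratios took part in choosing the genes, nothing is read from either count. In descending order the means ran Baat, Apoc3, Apoh, Apoe, Lpl, Fabp1 and Mttp. With its opposite clones averaged, Lpl was above Fabp1 on 3 of 3 arrays by 0.57 ± 0.28. Clone AK017272 alone was below Fabp1 on array 1 (-1.09 against -0.64) and above it on array 3 (-0.25 against -0.32). The order of Lpl and Fabp1 is thus not settled. Among neighbours in this order the widest gap was that of 3.36 ± 0.53 between Apoe and Lpl. The SD over arrays ran from 0.16 (Apoe) to 0.38 (Apoc3), against a median of 0.22 over all tested genes.

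**Figure D2:**
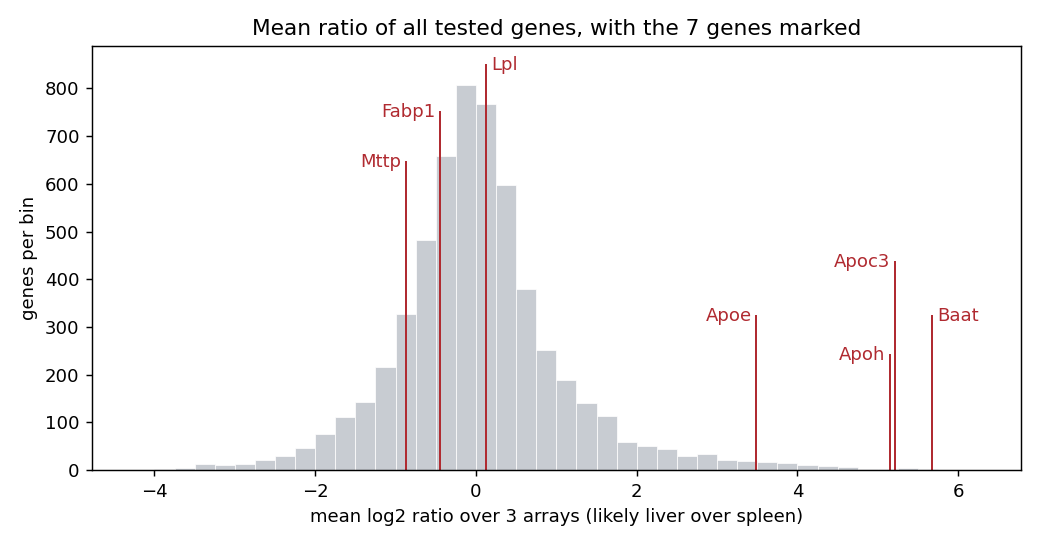
Number of genes (vertical axis) by mean log2 ratio over 3 arrays (horizontal axis, bins of 0.25) for 5731 tested genes, with red lines at the means of the 7 genes. The line heights carry no value. Lpl (0.13), Fabp1 (-0.44) and Mttp (-0.87) stand in the bulk, and Apoe (3.49), Apoh (5.16), Apoc3 (5.21) and Baat (5.68) in the sparse liver tail.

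The genes with the ratios most like each of the 7 were found, with the 7 themselves left out of the search, by the root mean square difference over the 3 arrays. Gnmt, a glycine methyltransferase, was nearest to Apoc3 (0.18) and to Apoh (0.21), with Mtarc1 next to each (0.35 and 0.21). Aadac (0.31) and the sulfotransferase Sult1d1 (0.32) were nearest to Baat, and Rhou (0.077) and Nkiras2 (0.086) to Apoe. In the crowded middle, Cspp1 (0.013) and Ddit4 (0.034) were nearest to Mttp, Med6 (0.038) and Nelfe (0.043) to Fabp1, and 2810048H02Rik (0.025) and Hbb-y (0.032) to Lpl. A distance over 3 arrays mostly reflects the mean.

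Other genes of lipid metabolism were taken from 8 lists, none of which holds the 7 genes. The lists were chosen with earlier results of these data known, so their shares are a description and not support. Of 258 listed genes, 87 had a named spot and 57 had a ratio on all arrays. Their means were tested in the same limma fit, with p-values adjusted over all 5731 genes, of which 27.1% were called toward liver and 27.8% toward spleen (54.9% in all). Of the 57 lipid genes 44 were called (77.2%), of which 38 favoured liver (66.7% of the 57) and 6 favoured spleen, and 13 did not pass. Their median was 1.12, against -0.030 over all tested genes. With each gene's own variance 28 of the 57 were called, 26 of them on the liver side, where 25.5% of all genes were called and 15.2% on the liver side.

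**Figure D3:**
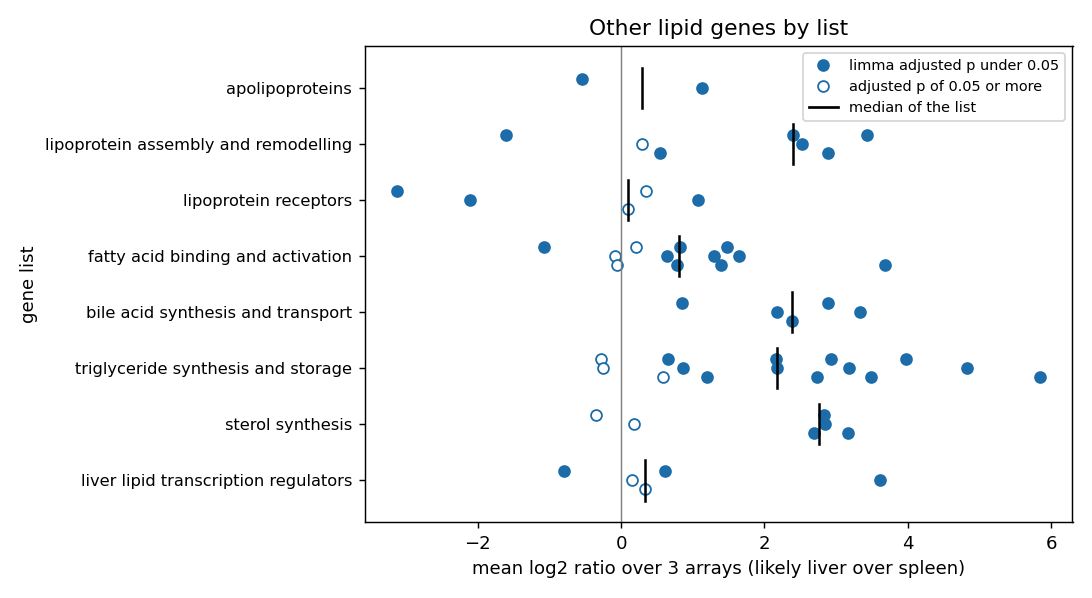
Mean log2 ratio over 3 arrays (horizontal axis) of the 57 tested lipid genes in 8 lists (rows), with filled points for a limma adjusted p under 0.05 and a vertical tick at each list's median. All 5 bile acid genes lie on the liver side, and lipoprotein receptors reach -3.13.

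Few apolipoproteins beyond the 3 described could be tested. Apool, an apolipoprotein O-like protein of the mitochondrial inner membrane, was higher in liver (1.12 ± 0.39, limma adjusted p = 0.0034), and Apol6 was higher in spleen (-0.55 ± 0.33, adjusted p = 0.0322). The call of Apol6 did not hold without array 2 (adjusted p = 0.0713) or array 3 (0.121). With exact zeros kept, Apool and Apol6 were not called (0.0754 and 0.0862), nor under their own variance (0.089 and 0.174). Over the alternatives adjusted p ran from 0.000654 to 0.089 for Apool and from 0.0287 to 0.174 for Apol6.

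Among 7 genes of lipoprotein assembly and remodelling, 5 favoured liver by the test and 1 favoured spleen (median 2.40). Lcat, which esterifies cholesterol on high-density lipoprotein, had ratios of 3.73, 4.58 and 1.98, all on the liver side, with a mean of 3.43 ± 1.32 (limma adjusted p = 0.00224). Angptl4, a secreted inhibitor of lipoprotein lipase, stood at 2.53 ± 0.54 (adjusted p = 0.000446), and the endothelial lipase Lipg at 2.40 ± 0.19 (adjusted p = 0.000105). Sar1b, the GTPase of the vesicles that carry lipoproteins out of the endoplasmic reticulum, stood at 2.89 ± 0.11. Thus Sar1b, which acts after Mttp in the same secretory route, lay on the liver side and Mttp did not. Abca1, which exports cholesterol to lipid-poor apolipoproteins, was the lowest of those called on the liver side at 0.54 ± 0.22 (adjusted p = 0.0196), and the paraoxonase Pon2 was not called (0.28 ± 0.13, adjusted p = 0.0941). Pla2g7, the lipoprotein-associated phospholipase that macrophages secrete, was higher in spleen at -1.61 ± 0.50 (adjusted p = 0.00174). Abca1 was not called without array 1 (adjusted p = 0.118) or array 2 (0.0533), and its alternatives ran from 0.0167 to 0.118. Under each gene's own variance 2 of the 7 were called, with Lcat (0.102), Angptl4 (0.0545), Abca1 (0.109) and Pla2g7 (0.0802) lost.

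Lipoprotein receptors lay on both sides. Of 5 tested, 1 was higher in liver and 2 in spleen (median 0.10), or 60.0% called, where 54.9% of all tested genes were. Lrp1, a hepatic remnant receptor that binds apolipoprotein E, had ratios of 1.20, 1.37 and 0.64, with a mean of 1.07 ± 0.38 (limma adjusted p = 0.00397, or 0.0931 under its own variance, in a range from 0.000835 to 0.0931). The sorting receptors Sorl1 and Sort1 were higher in spleen. Sorl1 had ratios of -3.38, -2.87 and -3.13, or 8.73-fold higher in spleen (adjusted p = 6.75e-05), and Sort1, which binds apolipoprotein B in the Golgi, had -2.20, -2.07 and -2.04, or 4.30-fold (adjusted p = 0.000111). All arrays placed these receptors below Mttp. Lrp6 (0.35 ± 0.24) and Amn (0.10 ± 0.14) were not called.

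Fatty acid binding and activation genes were mostly higher in liver, with 8 of 12 there and 1 in spleen (median 0.80). Dbi, the acyl-CoA-binding protein, had ratios of 3.70, 3.70 and 3.62 (mean 3.67 ± 0.048, limma adjusted p = 3.18e-05). Unlike Fabp1, this cytosolic carrier was on the liver side, averaged over 4 spots. Acbd4 (1.65 ± 0.24) and Acbd6 (0.79 ± 0.27) share its acyl-CoA-binding domain, Stard4 (1.48 ± 0.099) carries cholesterol, and Osbpl9 (0.65 ± 0.035) belongs to the oxysterol-binding family. Scp2, a sterol carrier, was called on the spleen side at -1.08 ± 0.65 over 6 spots (limma adjusted p = 0.0149). However, its largest-ratio spot among those with values on the most arrays gave 2.96. The Scp2 call did not hold without array 3 (adjusted p = 0.0778), with exact zeros kept (0.0645) or under own variance (0.172), in a range from 9.62e-05 to 0.172. Without array 1 the calls of Acbd6 (0.0541, from 0.00375 to 0.088 over its alternatives) and Osbpl9 (0.0563, the highest over its alternatives, from 0.00396) were also lost.

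All 5 bile acid genes tested were higher in liver, as Baat was (median 2.38). Abcg8, part of the transporter that secretes sterols into bile, had ratios of 3.61, 2.72 and 3.64 (mean 3.33 ± 0.52, limma adjusted p = 0.00018). The epoxide hydrolase Ephx1 stood at 2.89 ± 0.19 and Abcc3, an exporter of bile acid conjugates, at 2.38 ± 0.15 (adjusted p = 9.67e-05). Nr0b2, the nuclear receptor that represses bile acid synthesis, stood at 2.17 ± 0.21, and Amacr, the racemase needed to shorten the bile acid side chain, at 0.85 ± 0.14 (adjusted p = 0.00257). None of the 5 lost its call under any alternative run. Each mean was below that of Baat.

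Of 15 genes that make and store triglyceride and fatty acids, 12 were higher in liver, 0 in spleen and 3 were not called (median 2.18). Aadac (5.85 ± 0.10), Elovl2 (4.82 ± 0.11) and Dgat2 (3.97 ± 0.26) were the highest. Dgat1, the other enzyme of the last step of triglyceride synthesis, had ratios of 1.16, 1.22 and 1.20 (limma adjusted p = 0.000563). Mgll, which hydrolyses monoglycerides, was at 0.87 ± 0.34 (adjusted p = 0.00687), and Abhd5, an activator of triglyceride lipase, was at 0.66 ± 0.42 (adjusted p = 0.0271). Without array 1, Mgll (0.0509, from 0.00471 to 0.105 over its alternatives) and Abhd5 (0.0926, from 0.000685 to 0.184) were not called, and Abhd5 was not called without array 2 either (0.0527).

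In sterol synthesis, 4 of 6 tested genes lay on the liver side by the test and 0 on the spleen side (median 2.76). Ebp had ratios of 3.19, 3.29 and 3.01, Fdft1 (squalene synthase) 3.11, 3.09 and 2.32, Insig2 2.69, 2.80 and 2.99, and Cyp51 2.77, 2.64 and 2.68 (limma adjusted p from 4.52e-05 to 0.000211). All but Insig2, which holds back activation of the sterol-regulated transcription factors, are enzymes of the pathway. Mvk (0.19 ± 0.33) and Ggps1 (-0.36 ± 0.25) were not called.

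Of 5 tested transcription regulators of hepatic lipid genes, 2 favoured liver and 1 favoured spleen by the test (median 0.33). That is 60.0% called, where 54.9% of all tested genes were. Klf15 had ratios of 3.73, 3.28 and 3.82 (mean 3.61 ± 0.29, limma adjusted p = 5.66e-05). The orphan receptor Esrra was at 0.61 ± 0.23 (adjusted p = 0.014) and Nr2f2, which encodes COUP-TFII, at -0.80 ± 0.21 (adjusted p = 0.00461). Without array 1 only Klf15 kept its call, with 0.108 for Esrra (from 0.014 to 0.108 over its alternatives) and 0.0581 for Nr2f2 (from 0.00202 to 0.0685), and without array 2, which left 9 genes with values, 6 were called. Nr2f2 was not called with exact zeros kept either (0.0685). Under each gene's own variance only Klf15 was called (adjusted p = 0.0271).

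Markers of other cells that can express these genes moved as follows. Of 6 macrophage markers, 4 favoured spleen by the test and 1 favoured liver (median -0.73), with Axl at -2.14 ± 0.058, Lgals3 at -1.94 ± 0.21, Slc40a1 at -0.89 ± 0.091, Fcgr1 at -0.57 ± 0.096 and Ctsz at 0.76 ± 0.39. Without array 1, Fcgr1 (limma adjusted p = 0.0927, from 0.00209 over its alternatives) and Ctsz (0.11, from 0.00951 to 0.145) were lost and 3 of 7 were called. Apoe, also a macrophage product, was on the liver side with either clone. Of 5 intestinal markers 60.0% were called, where 54.9% of all tested genes were. Sis (1.24 ± 0.50) and Tff3 (1.22 ± 0.31) were higher in liver and Krt20 (-0.52 ± 0.081) in spleen. Krt20 was not called without array 1 (0.102) or array 3 (0.0526), in a range from 0.00998 to 0.102. Under own variance Krt20 kept its call (0.0412), and Sis and Tff3 did not. The highest adjusted p over their alternatives was 0.107 for Sis and 0.0639 for Tff3. Of 3 adipose markers only Car3 (0.94 ± 0.081) was called, on the liver side. The part of these cells in the ratios of Mttp, Fabp1, Lpl and Apoe was not tested.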

How the data were processed

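The values deposited by the authors are log2 ratios of both channels, 1 per spot and array, per the values and the labels. How the authors scanned, background-corrected and normalized was not given in the sources used here. No intensities were used, so no filter on dim spots or background alternative could be run, and no slide or scan label was given. Symbols from the platform annotation were updated by Entrez identifier through RefSeq (GRCm38.p6); 12228 of 12397 annotated spots matched. Exact zeros were taken as missing, and a gene's spots were averaged per array. The 5731 genes with a ratio on each of the 3 arrays entered limma 3.58.1 in R 4.3.3 (intercept, eBayes, two-sided, Benjamini-Hochberg, threshold 0.05), with 2 residual and 3.51 prior degrees of freedom. The fit was run on simulated ratios with a far smaller share of genes changed than called here, so nothing is read from that run. Errors are SD over arrays, and their number limits the precision.

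The genes and lists were chosen with earlier results of these data known. Named were all 7 genes, the 3 highest and 3 lowest called genes of each list (all where under 3 were tested), and the 2 nearest genes. List genes that were not called, and Cd3g and Cd8a, were named after their values were seen. Alternatives covered zeros, centring, scaling, spot averaging, missing values, variance and left-out arrays.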

Additional observations from a re-analysis of the deposited data

How the results depend on the processing

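The means of Baat, Apoc3, Apoh, Apoe, Mttp and Fabp1 kept their sign and moved by less than their SD under all 9 alternatives run on them. Most of these runs could not have come out otherwise. Leaving out an array cannot turn a gene of 1 sign on all arrays, nor move its mean by its SD. Choices on zeros and spots left the genes with 1 spot, all but Apoe, unchanged by construction, as none had a zero. Centring took the array medians from every gene, and these were smaller than each SD and each ratio, so it could not have done either. Scaling could not turn a sign but could have moved a mean by its SD. Lpl moved to 0.53 with complete spots alone and with the largest-ratio spot, which was sought among the spots with values on the most arrays. Both runs thus used clone AK002645 alone. Clone AK017272, with no ratio on array 2, had the mean of larger size (-0.67), on the spleen side. Lpl turned to -0.070 without array 2 (from -0.070 to 0.30 over the left-out arrays). Over all genes, 1461 were called with each gene's own variance (869 higher in liver, 592 in spleen) in place of 3146 (1551 and 1595). Leaving out 1 array gave 1841 to 3343 calls (938 to 1530 in liver, 903 to 1813 in spleen), the fewest without array 1; the cause was not tested. Of the lipid genes, 28 were called with their own variance in place of 44. Those higher in spleen, 6 in all, were 2 with their own variance and 3 with exact zeros kept. Over 11 alternatives and 56 list genes named by the rule of highest and lowest means, 574 of 616 results kept their call and direction. Of the others, 41 lost the call and 1 turned (Scp2, 2.96 with the largest-ratio spot so chosen). Own variance accounted for 19 of the lost calls, among them Fgb, Ighm, Cd4, Sis and Tff3, and array 1 for 10. Centring and scaling changed none of these 56. Each array held both tissues, so every ratio already paired liver with spleen within an array, and the test against 0 was that paired comparison. The 3 arrays form 1 group, so no further pairing was possible. With 3 arrays, no dye exchange and no intensities, small ratios such as those of Fabp1 and Lpl cannot be set against signal over background.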
